A study of Mus musculus with 2 samples.

Results

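Calprotectin and other neutrophil genes were followed across spots of orthotopic mouse pancreatic tumors. The 9 genes were chosen by symbol, 9 of the 19465 features counted in both libraries, and all 9 had UMIs (unique molecular identifiers, 1 for each RNA-bound probe counted) in both. S100a8 and S100a9 encode the subunits of calprotectin, the metal-binding protein that fills the cytoplasm of neutrophils. Csf3r is the receptor for granulocyte colony-stimulating factor, Cxcr2 is the receptor through which neutrophils follow CXC chemokines, and G0s2 is an inhibitor of fat breakdown that is abundant in blood neutrophils. Mmp8 and Mmp9 are proteases stored in granules, Retnlg is a secreted protein of maturing neutrophils, and Ly6g is the surface marker by which mouse neutrophils are usually sorted. Neutrophils load their granules in the bone marrow, in an order from azurophil to specific to gelatinase granules, and much of the RNA for granule proteins is gone when the cells leave it. In tumors they respond to CXCR2 ligands and are often found in hypoxic or necrotic zones, where they express cytokine and chemokine genes. The genes are therefore given in 3 groups: calprotectin genes (S100a8, S100a9), receptor and activation genes (Csf3r, Cxcr2, G0s2) and granule genes (Mmp8, Mmp9, Retnlg, Ly6g). The last group takes in Retnlg and Ly6g, which are not described above as granule proteins.

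The tumors grew in the pancreas of mice injected with 1 of 2 stable derivatives of KPC, a mouse pancreatic cancer cell line. KPC-shZEB1 carries a short hairpin RNA against Zeb1 and KPC-shV the control vector; both were made with lentivirus under drug selection. For its orthotopic models the study lists C57BL/6J among its mouse strains, with an age of 4 to 6 weeks, and it gives gemcitabine for the tumors of this assay, a drug the sample labels do not name. The labels give 2 tumors per group but 1 library per condition, and which tumor a library covers is not stated.

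Each library was a probe-based Visium CytAssist section in which a spot reads a small region with several cells, so that fewer neutrophils and less RNA per neutrophil cannot be told apart. KPC-shZEB1 had 2220 spots and 140493626 UMIs and KPC-shV 3552 spots and 172059528 UMIs. Acinar-rich spots, with over 20% of UMIs from 20 digestive enzyme and other acinar genes, made up 34.2% and 7.07% of the spots and were set apart as normal pancreas. Levels below refer to the other 1461 and 3301 spots (median 58332 and 54861 UMIs) unless stated, in UMIs per 1000000 UMIs of those spots (CPM). With 1 library per condition no test was possible, differences between the libraries cannot be separated from differences between sections, and the 95% intervals, given in brackets or after a value, cover counting error only. Probes differ in efficiency, so levels of different genes were not ranked, and were set only against the range of 7 background genes, as a rough guide. Zeb1 was read at 15.6 CPM in KPC-shZEB1 and 12.7 CPM in KPC-shV, so the targeted gene was not lower in the library labelled KPC-shZEB1 and directions are given by the labels (over all spots, 10.8 and 12.4 CPM). Tumor spots can also hold stromal cells that express Zeb1. Their part in the Zeb1 levels, and whether the libraries are labelled correctly, were not tested. The libraries shared 1718 spot barcodes, which are fixed positions of the slide type.

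S100a8 and S100a9 are neighbors on chromosome 3 of GRCm38, 22596 bases apart, S100a8 at 90668978 to 90670035 on the forward strand and S100a9 at 90692632 to 90695721 on the reverse strand. G0s2 lies on chromosome 1 at 193272161 to 193273217 on the reverse strand, and Mmp8 on chromosome 9 at 7558456 to 7568485 on the forward strand. The sequence before these 4 genes is shown because the first 3 were high together in hypoxic spots of KPC-shV and Mmp8 was much less so, as described below. Promoter windows of 250 bases before and 50 after the start were taken from RefSeq (GRCm38.p6). A window was found for 8 of the 9 genes, all but Mmp9, with 2 for Ly6g. Each window was searched on both strands for TTGCNNAA, bound by C/EBP factors, GAGGAA, bound by PU.1, TGANTCA, bound by AP-1, and ACGTG and GCGTG, the core bound by HIF. The bases before the annotated start follow, 5′ to 3′ on the strand of the gene, with every match in capitals (the opposite-strand form of GAGGAA reads TTCCTC).
S100a8, chr3:90668821-90668977, forward: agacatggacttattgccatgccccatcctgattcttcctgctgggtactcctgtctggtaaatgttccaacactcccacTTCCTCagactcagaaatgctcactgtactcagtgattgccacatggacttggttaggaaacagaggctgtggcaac
S100a9, chr3:90695722-90695971, reverse: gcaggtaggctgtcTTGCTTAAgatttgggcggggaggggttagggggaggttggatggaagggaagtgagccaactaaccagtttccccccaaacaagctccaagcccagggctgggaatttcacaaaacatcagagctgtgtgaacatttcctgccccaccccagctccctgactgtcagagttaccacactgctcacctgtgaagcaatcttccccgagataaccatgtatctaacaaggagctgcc
G0s2, chr1:193273218-193273438, reverse: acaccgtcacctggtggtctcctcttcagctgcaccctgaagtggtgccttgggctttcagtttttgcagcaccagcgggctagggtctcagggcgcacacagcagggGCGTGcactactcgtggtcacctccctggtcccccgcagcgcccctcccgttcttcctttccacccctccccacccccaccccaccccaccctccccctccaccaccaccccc
Mmp8, chr9:7558179-7558428, forward: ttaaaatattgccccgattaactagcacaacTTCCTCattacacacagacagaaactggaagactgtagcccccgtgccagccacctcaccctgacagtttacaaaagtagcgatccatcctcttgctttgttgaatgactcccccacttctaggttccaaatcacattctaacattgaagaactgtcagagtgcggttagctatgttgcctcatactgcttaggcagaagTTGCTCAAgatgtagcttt
The S100a9 window held a C/EBP match 236 bases before the RefSeq start, and the Mmp8 window held one 19 bases before it. The S100a8 window had PU.1 matches 170 and 36 bases before the RefSeq start, the second of which lies past the bases printed, and Mmp8 had one at 219. The capitals in G0s2 are a GCGTG core 142 bases before the start. Among all 32851 windows, 10.8% held the C/EBP letters, 28.3% the PU.1 letters, 7.81% the AP-1 letters, 19.6% ACGTG and 32.4% GCGTG. Of the windows not printed, those of Csf3r and Cxcr2 held PU.1 matches, that of Retnlg a C/EBP match and those of Ly6g both kinds. No window of the 8 genes held the AP-1 letters, and no matches overlapped. A match is a description of the letters only.

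Calprotectin genes were the most unequal group between the sections. S100a8 was read at 40.6 CPM (39.3 to 42.0) in KPC-shZEB1 and 87.3 CPM (85.9 to 88.7) in KPC-shV. S100a9 was read at 44.0 CPM (42.7 to 45.5) and 162 CPM (160 to 164), respectively. On the log2 scale the difference, KPC-shZEB1 minus KPC-shV, was thus -1.10 (-1.16 to -1.05) for S100a8 and -1.88 (-1.93 to -1.83) for S100a9, or 2.15-fold and 3.68-fold lower in KPC-shZEB1, far beyond counting error. The subunits did not keep 1 proportion: per 100 UMIs of S100a8 there were 109 UMIs of S100a9 (104 to 114) in KPC-shZEB1 and 186 (182 to 190) in KPC-shV. Where spots of at least 20000 UMIs only were used, the log2 ratio of the pair was -1.28 in place of -1.56, and with every spot weighted equally it was -2.91.

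Of the 9 genes, 3 had a log2 ratio of -1 or lower (S100a8, S100a9 and Retnlg), where 1.72% of the 18896 genes with at least 100 UMIs over both libraries did. None of the 9 had a ratio of 1 or higher, which 3.81% of all these genes had. The median log2 ratio was -0.59 over the 9 genes and -0.01 over all genes.

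Receptor and activation genes were lower in KPC-shZEB1 by less. Csf3r was read at 33.7 CPM (32.5 to 35.0) in KPC-shZEB1 and 42.4 CPM (41.4 to 43.4) in KPC-shV. The log2 ratio (KPC-shZEB1 to KPC-shV here and below) was -0.33 (-0.39 to -0.27). Cxcr2 was read at 8.86 CPM (8.24 to 9.51) and 11.4 CPM (10.8 to 11.9), for which the ratio was -0.36 (-0.48 to -0.24). G0s2 was the most unequal of the 3, with 8.26 CPM (7.66 to 8.89) and 15.4 CPM (14.8 to 16.0) and a ratio of -0.90 (-1.02 to -0.78). The proportion of the receptors to each other was alike, at 26.3 UMIs of Cxcr2 per 100 of Csf3r (24.2 to 28.5) in KPC-shZEB1 and 26.8 (25.5 to 28.2) in KPC-shV. The log2 ratio of the 3 genes together, -0.44, was -0.21 in spots of at least 20000 UMIs, -1.02 over all spots with acinar-rich ones included, and -1.56 with every spot weighted equally.

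Granule genes went in both directions. Mmp9, the gelatinase that macrophages and other cells also make, was the only one of the 9 genes with a higher level in KPC-shZEB1, at 61.9 CPM (60.2 to 63.5) against 43.8 CPM (42.8 to 44.8) and a log2 ratio of 0.50 (0.45 to 0.55). Over all spots, acinar-rich ones included, that ratio was -0.10, and with every spot weighted equally it was -0.02. Mmp8, the neutrophil collagenase, was read at 4.25 CPM (3.82 to 4.71) in KPC-shZEB1 and 6.41 CPM (6.03 to 6.81) in KPC-shV. Retnlg was read at 1.45 CPM (1.21 to 1.73) and 4.81 CPM (4.49 to 5.16), which gave -1.73 (-2.02 to -1.46) on the log2 scale. Ly6g was read at 2.80 CPM (2.45 to 3.17) and 3.51 CPM (3.23 to 3.81), and whether its probes also read relatives of the Ly6 family was not tested. Because Mmp9 held most of the UMIs of the group, the ratio of the summed granule genes was 0.27 with Mmp9 and -0.80 without it.

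A set of 7 genes not expected in pancreas or tumor, such as the heart myosin gene Myh6 and the sperm protamine gene Prm1, was read at 0.409 to 1.99 CPM in KPC-shZEB1 and 0.441 to 1.18 CPM in KPC-shV. The level of Retnlg in KPC-shZEB1 lay inside the range of that library, and Ly6g there was not far above it. The other 7 genes were above the range of their library in both.

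**Figure D1:**
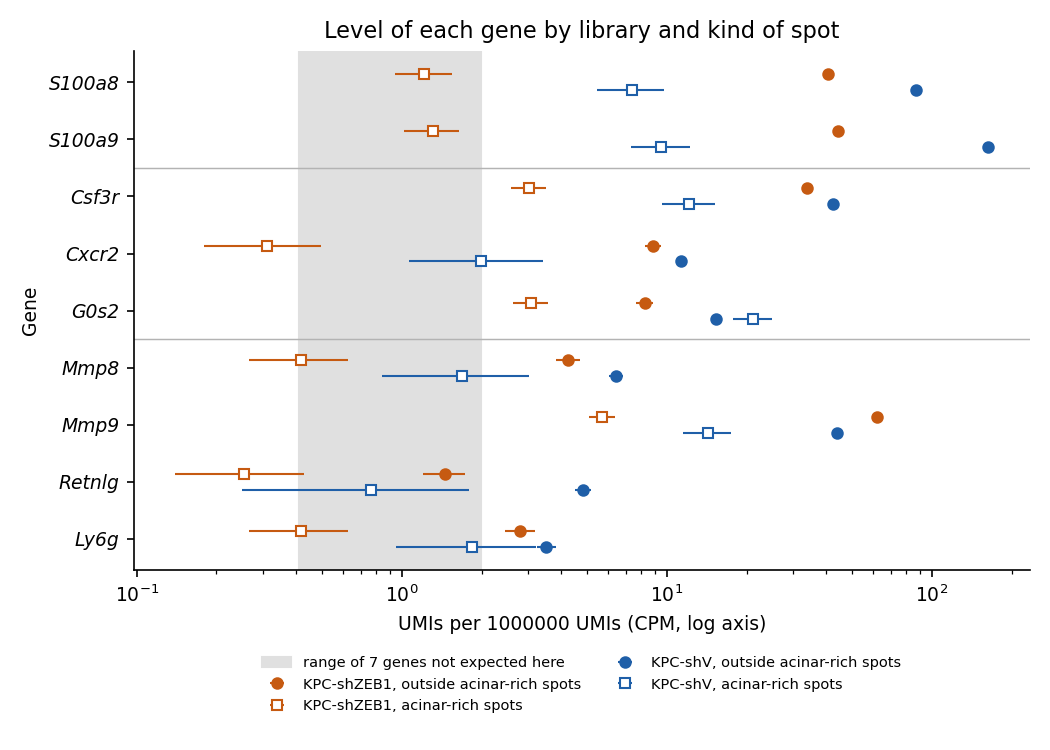
Level of each of the 9 genes in CPM on a log axis, with 95% counting intervals, for KPC-shZEB1 (orange) and KPC-shV (blue); filled circles are spots outside acinar-rich ones and open squares acinar-rich spots, and the gray band is the range, over both libraries, of 7 genes not expected in this tissue (0.409 to 1.99 CPM). Outside acinar-rich spots Mmp9 alone was higher in KPC-shZEB1, and G0s2 in KPC-shV was the only gene with a higher level in acinar-rich spots (21.1 CPM) than outside them.

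In acinar-rich spots 8 of the 9 genes were lower than outside them in both libraries. The calprotectin genes together were read there at 2.53 CPM (2.12 to 2.98) in KPC-shZEB1 and 16.9 CPM (13.9 to 20.4) in KPC-shV, against 84.6 and 249 CPM outside. G0s2 was the exception: in KPC-shV it was read at 21.1 CPM (17.7 to 24.9) in acinar-rich spots and 15.4 CPM outside, and in KPC-shZEB1 at 3.07 and 8.26 CPM. Acinar-rich spots of KPC-shV were shallow, with a median of 24224 UMIs against 66374 in KPC-shZEB1.

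The share of spots with a UMI was compared after thinning each spot to 5000 UMIs, which left out 4 spots of KPC-shZEB1 and 174 of KPC-shV. S100a9 was then found in 15.9% of 1457 spots (14.1% to 17.9%) in KPC-shZEB1 and 39.9% of 3127 spots (38.2% to 41.6%) in KPC-shV, and S100a8 in 15.2% and 32.1%. Csf3r was found in 15.1% and 22.2% of spots, Cxcr2 in 4.67% and 6.88%, and G0s2 in 4.26% and 10.9%. Among granule genes the shares were 2.33% and 3.93% for Mmp8, 1.17% and 4.06% for Retnlg, and 1.37% and 1.89% for Ly6g. For Mmp9 they were 21.1% and 21.3%, with overlapping intervals, but 53.8% (51.1% to 56.4%) and 48.6% (46.6% to 50.5%) after thinning to 20000 UMIs, and 78.9% and 72.5% without thinning. The genes not expected here were found in 0.137% to 1.24% of spots in KPC-shZEB1 and 0.160% to 0.704% in KPC-shV, so that the share of Retnlg in KPC-shZEB1 was at the level of background. The share of Ly6g there, 1.37% (0.840% to 2.11%), was not clearly above background. Without thinning, S100a9 was found in 64.3% and 82.7% of spots. At least 5 of the 9 genes were found together in 4 of 1457 spots (0.275%) in KPC-shZEB1 and 138 of 3127 spots (4.41%) in KPC-shV (5 and 141 spots with another random thinning), and at least 5 calprotectin UMIs in 1.10% and 11.7% of spots. After thinning to 20000 UMIs the shares were 7.53% and 18.5% for at least 5 genes, and 9.16% and 31.9% for at least 5 calprotectin UMIs. Without thinning they were 36.5% and 52.5%, and 33.3% and 61.6%, so that these shares depend strongly on depth.

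Most spots of both libraries held calprotectin UMIs, and 22.0% of those of KPC-shZEB1 and 11.5% of those of KPC-shV held none. The median spot held 7 calprotectin UMIs in KPC-shV and 2 in KPC-shZEB1 before thinning, and the 90th percentile was 32 and 12. The single spot with the most calprotectin UMIs was nevertheless in KPC-shZEB1, with 151 against 114. The 5% of spots with the most of them held 32.3% of the calprotectin UMIs of KPC-shZEB1 and 22.6% of those of KPC-shV. Ly6g was uneven in both, with 58.6% and 52.8% of its UMIs in the top 5% of spots and up to 13 and 14 UMIs in a spot, whereas no spot held over 6 and 7 UMIs of Mmp8.

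Hypoxia of a spot was read from 10 genes induced by low oxygen (Car9, Ndrg1, Vegfa, Slc2a1, Adm, Bnip3, Egln3, Ankrd37, Pdk1 and P4ha1), and spots were put into 4 bins at 5.42, 8.38 and 21.4 hypoxia UMIs per 10000 UMIs, the quartiles over both libraries. From the lowest to the highest bin there were 495, 518, 361 and 87 spots in KPC-shZEB1 and 696, 672, 829 and 1104 in KPC-shV. The highest bin thus took 5.95% of the spots of KPC-shZEB1 and 33.4% of those of KPC-shV, and within it the hypoxia genes were at 3455 and 4149 CPM.

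Outside acinar-rich spots, calprotectin genes followed hypoxia in KPC-shV and not in KPC-shZEB1. Over all spots, acinar-rich ones included, the KPC-shZEB1 log2 ratio of -0.04 between the highest and the lowest bin turned to 2.42. In KPC-shV, S100a9 was read at 52.5, 66.5, 99.4 and 412 CPM from the lowest to the highest bin, a log2 ratio of 2.97 (2.90 to 3.04) between the ends. In KPC-shZEB1 it was read at 44.7, 42.6, 45.1 and 45.3 CPM, a ratio of 0.02 (-0.21 to 0.24). S100a8 was read at 36.6, 47.6, 63.0 and 193 CPM in KPC-shV and at 40.4, 40.8, 41.1 and 37.7 CPM in KPC-shZEB1. In the lowest bin the libraries were close, with the calprotectin genes at 85.1 CPM in KPC-shZEB1 and 89.1 CPM in KPC-shV and a log2 ratio of -0.07 (-0.14 to 0.01), in which the subunits went opposite ways, S100a8 at 0.14 (0.03 to 0.26) and S100a9 at -0.23 (-0.34 to -0.13). In the highest bin they were at 83.0 and 605 CPM, a ratio of -2.87 (-3.02 to -2.71). Of all calprotectin UMIs of KPC-shV 63.0% lay in the highest bin, which held 26.0% of all UMIs. The proportion of the subunits moved with it, from 144 UMIs of S100a9 per 100 of S100a8 (134 to 154) in the lowest bin of KPC-shV to 213 (207 to 218) in the highest, while in KPC-shZEB1 it was 111 (102 to 120) and 120 (96.9 to 149).

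Among receptor and activation genes, G0s2 in KPC-shV was read at 7.80, 5.28, 7.30 and 39.8 CPM from the lowest to the highest bin. In KPC-shZEB1 G0s2 was read at 10.4, 7.08, 6.80 and 10.2 CPM. Its level in KPC-shV also depended on depth. In spots under 20000 UMIs it was at 26.0, 20.1 and 27.3 CPM in the first 3 bins and 292 CPM in the highest. In those of 20000 to under 50000 UMIs it was at 22.6 CPM in the lowest and 45.0 CPM in the highest bin. The highest bin of spots of 50000 UMIs or more was at 14.1 CPM, below all these values. Csf3r was level over the first 3 bins of KPC-shV, at 33.7, 33.8 and 30.4 CPM, and was at 70.6 CPM in the highest, whereas in KPC-shZEB1 it was at 36.3, 37.4, 26.9 and 23.6 CPM. The log2 ratios between the ends of the scale were 1.06 (0.97 to 1.16) in KPC-shV and -0.62 (-0.93 to -0.32) in KPC-shZEB1, in opposite directions with both intervals clear of 0. Over all spots, acinar-rich ones included, the KPC-shZEB1 ratio of Csf3r turned to 1.44 (1.17 to 1.70). Cxcr2 was at 8.56, 8.16, 10.6 and 17.4 CPM in KPC-shV and between 8.34 and 8.97 CPM in every bin of KPC-shZEB1. In the lowest 2 bins G0s2 was higher in KPC-shZEB1 than in KPC-shV, by log2 ratios of 0.41 (0.18 to 0.65) and 0.42 (0.14 to 0.71).

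In the granule group Mmp8, Mmp9 and Ly6g did not share this pattern, while Retnlg did in KPC-shV. Retnlg was at 2.35, 2.80, 2.57 and 11.2 CPM in KPC-shV, a log2 ratio of 2.26 (1.93 to 2.60), close to those of S100a8 (2.40) and G0s2 (2.35). In KPC-shZEB1 it had 48, 50, 23 and 3 UMIs in the 4 bins, too few for a trend. Mmp8 was at 5.79, 6.22, 5.09 and 8.59 CPM in KPC-shV, a ratio of 0.57 (0.32 to 0.81), and at 5.07, 3.43, 4.59 and 3.10 CPM in KPC-shZEB1, a ratio of -0.71 whose interval (-1.66 to 0.11) holds 0. Ly6g was at 2.40, 4.36, 3.90 and 3.33 CPM in KPC-shV and at 3.44, 2.86, 2.02 and 1.91 CPM in KPC-shZEB1. Mmp9 was higher in the highest bin of both libraries, at 58.8 against 38.2 CPM in KPC-shV and 90.6 against 54.5 CPM in KPC-shZEB1, with like log2 ratios of 0.62 (0.53 to 0.72) and 0.73 (0.57 to 0.90).

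In KPC-shV 6 of the 9 genes had a log2 ratio of 1 or higher between the highest and the lowest bin (all but Mmp8, Mmp9 and Ly6g), against 3.53% of the 14035 genes with at least 100 UMIs in these bins. In KPC-shZEB1 none of the 8 genes with that many UMIs did, against 3.4% of 12171 genes. The medians over the 9 and the 8 genes were 1.06 and -0.10, and over all genes tested -0.02 and 0.04. In spots of at least 20000 UMIs of KPC-shV, Csf3r was at 32.8 and 51.9 CPM in the lowest and the highest bin. Cxcr2 was at 8.43 and 14.7 CPM there, so that both were under a log2 ratio of 1.

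**Figure D2:**
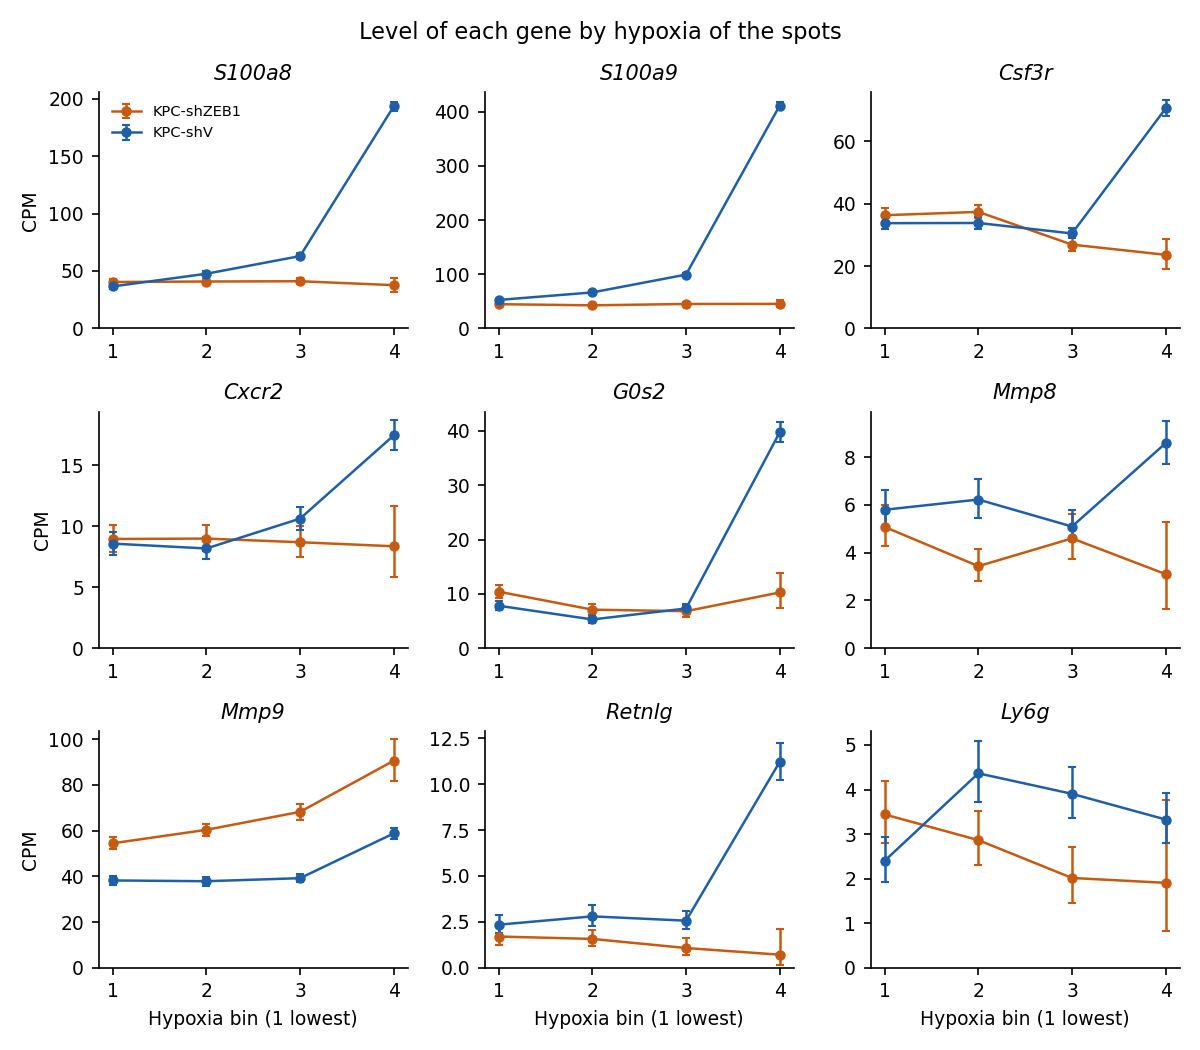
Level of each gene in CPM (vertical axis from 0, a scale of its own for each gene) in the 4 hypoxia bins, from lowest (1) to highest (4), with 95% counting intervals, in KPC-shZEB1 (orange) and KPC-shV (blue). S100a8, S100a9, Csf3r, Cxcr2, G0s2, Retnlg and, by less, Mmp8 had their highest level in bin 4 of KPC-shV. Mmp9 was higher in bin 4 of both libraries and Ly6g showed no common slope.

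Macrophage markers moved with hypoxia as well, and among the squamous epithelium markers mainly Sprr1a did. The 7 macrophage markers (all measured, none at 0), such as C1qa and Csf1r, summed to 3214 CPM in the lowest and 849 CPM in the highest bin of KPC-shZEB1 and to 2743 and 620 CPM in KPC-shV. They were thus low where the calprotectin genes of KPC-shV were high. The 7 squamous epithelium markers (none at 0), which stand for cells that can express S100a8 and S100a9 too, were at 67.8 and 290 CPM in KPC-shZEB1, where calprotectin was level, and at 134 and 264 CPM in KPC-shV. Most of that sum was Sprr1a, with log2 ratios between the highest and the lowest bin of 2.78 in KPC-shZEB1 and 1.15 in KPC-shV. The ratios were 0.03 and 0.23 for Krt14, -0.61 and 0.24 for Krt17, and 0.77 and 0.37 for Sbsn. Over all bins the keratin genes Krt14 and Krt17 were at 20.3 and 5.07 CPM in KPC-shZEB1 and at 7.93 and 20.9 CPM in KPC-shV. Sbsn was at 2.80 and 3.50 CPM, so that these genes lay above the range of genes not expected here. Krt5, Krt6a and Dsg3 were at 0.409 to 1.06 CPM, within that range. The part of these cells in the calprotectin levels was not tested.

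Spot depth went along with hypoxia in KPC-shV. Of its spots under 20000 UMIs 49.2% were in the highest bin, against 23.2% of those of 50000 to under 100000 UMIs. In KPC-shZEB1 these shares were 5.66% and 4.03%, and it had 53 such shallow spots against 630 in KPC-shV. Calprotectin genes of KPC-shV were read at 1526, 423, 156 and 108 CPM in spots under 20000, of 20000 to under 50000, of 50000 to under 100000 and of 100000 UMIs or more, and those of KPC-shZEB1 at 232, 97.3, 78.8 and 92.1 CPM. The number of calprotectin UMIs in a spot of KPC-shV was much more even, with means of 14.2, 15.1, 10.8 and 12.4. In KPC-shZEB1 it was larger in deeper spots, with means of 3.26, 3.79, 5.37 and 9.91.

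G0s2 had the steepest depth profile of the 9 genes in KPC-shV, at 140 CPM in spots under 20000 UMIs and 7.41 CPM in those of 50000 to under 100000, an 18.8-fold difference, and its mean UMIs per spot were 1.30 and 0.513. Retnlg (13.2-fold) and S100a9 (11.5-fold) came next, and Ly6g was lowest at 1.55-fold. In KPC-shZEB1 the largest of these differences were 4.60-fold for Retnlg, on 4 UMIs in shallow spots, and 4.35-fold for G0s2. The 7 background genes together were 3.03-fold higher in shallow spots of KPC-shV and 1.90-fold in KPC-shZEB1. Ly6g (1.55-fold and 1.48-fold) was below both values, and Mmp9 (3.05-fold and 1.37-fold) was not clearly above either. Acinar markers were 83.3-fold and 9.72-fold higher, and the part of acinar cells in the G0s2 levels was not tested. Adipocyte markers (5 genes, none at 0 over all depths) were at 383 CPM in the shallow spots of KPC-shZEB1 and 10.9 CPM in those of 50000 to under 100000 UMIs, where in KPC-shV they were at 11.2 and 5.60 CPM. Over all depths Cfd held 1648 of the 2723 adipocyte marker UMIs of KPC-shZEB1. Lep (0.690 CPM) and Plin1 (1.44 CPM) lay within the range of genes not expected there, and Adipoq (2.20 CPM) and Cidec (8.25 CPM) above it. Fat cells express G0s2, and their part in the G0s2 level of shallow KPC-shZEB1 spots was not tested.

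**Figure D3:**
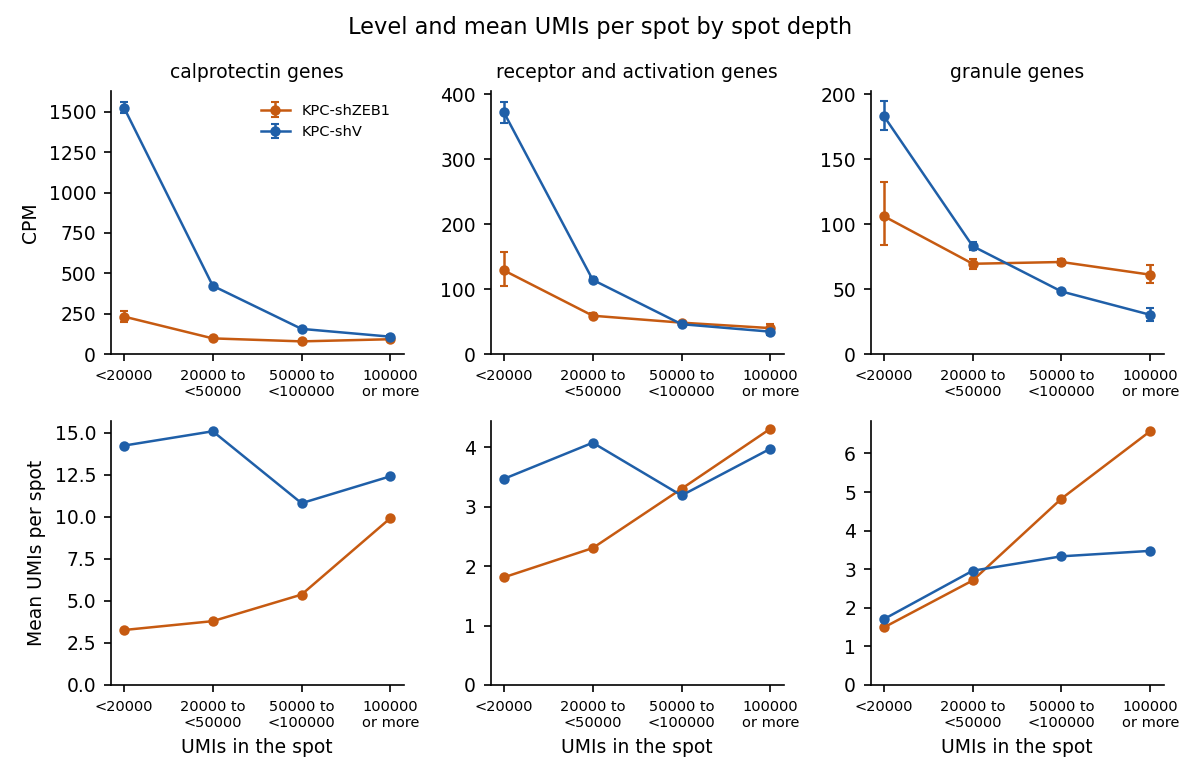
Level in CPM with 95% counting intervals (top row) and mean UMIs per spot (bottom row) of the 3 gene groups in spots of 4 ranges of total UMIs, in KPC-shZEB1 (orange) and KPC-shV (blue). In KPC-shV the calprotectin level was 1526 CPM in the shallowest and 108 CPM in the deepest spots while the mean number of its UMIs stayed between 10.8 and 15.1 per spot.

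The difference of the calprotectin genes by hypoxia was present at each depth of KPC-shV but differed in size. In spots under 20000 UMIs the calprotectin genes were at 55.7 CPM in the lowest and 3355 CPM in the highest bin. In spots of 20000 to under 50000 UMIs they were at 90.5 and 780 CPM, and in spots of 50000 UMIs or more at 90.0 and 270 CPM. In KPC-shZEB1 the deepest of these ranges gave 70.5 and 83.6 CPM and the middle range 130 and 64.1 CPM. In its spots under 20000 UMIs the lowest bin (29 spots, 99 calprotectin UMIs) was at 252 CPM (205 to 307), above the 55.7 CPM of KPC-shV. The 3 spots of KPC-shZEB1 that were both under 20000 UMIs and in the highest bin held 34 calprotectin UMIs, or 962 CPM (666 to 1344), and 10 UMIs of G0s2, or 283 CPM (136 to 520). In the matching 310 spots of KPC-shV the levels were 3355 and 292 CPM. With all spots under 20000 UMIs left out, the highest bin of KPC-shV (794 spots) had calprotectin genes at 433 CPM and G0s2 at 24.0 CPM, and that of KPC-shZEB1 (84 spots) had 75.5 and 7.93 CPM. Other genes of KPC-shV did not keep the difference at each depth. Mmp8 was at 20.9 CPM (16.9 to 25.4) in the lowest and 11.4 CPM (9.66 to 13.4) in the highest bin of spots of 20000 to under 50000 UMIs. Csf3r was at 29.5 and 33.2 CPM in spots of 50000 UMIs or more.

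**Figure D4:**
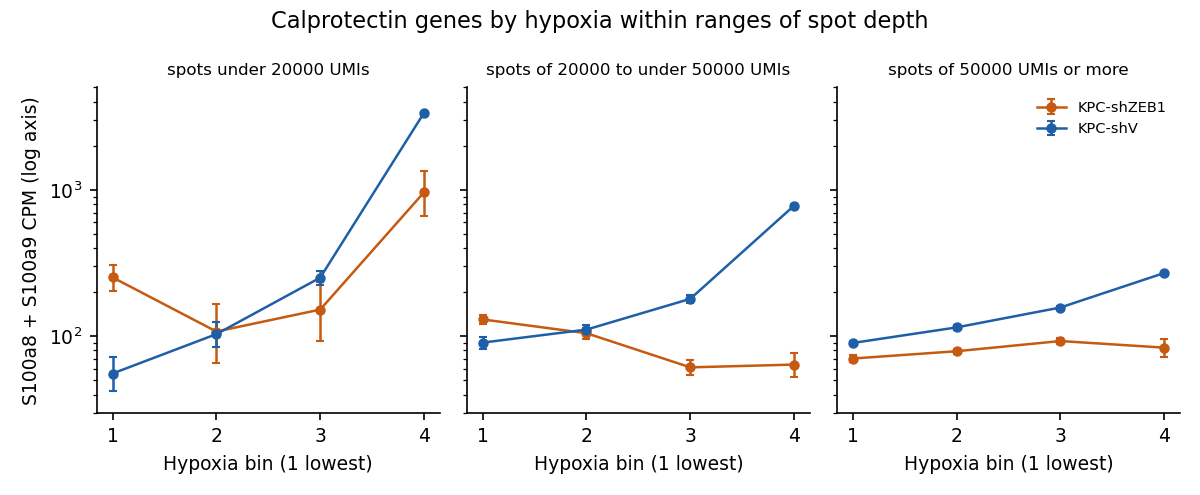
Level of S100a8 and S100a9 together in CPM (log axis) by hypoxia bin within 3 ranges of spot depth, with 95% counting intervals, in KPC-shZEB1 (orange) and KPC-shV (blue). In KPC-shV the highest bin stood above the lowest at every depth (3355, 780 and 270 CPM), and in KPC-shZEB1 only 3 spots made up the point at 962 CPM.

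Across single spots the median correlation of the 36 pairs of genes was 0.31 in KPC-shV and 0.09 in KPC-shZEB1. Pearson correlations were taken over spots with at least 5000 UMIs of log2(1 + UMIs per 10000 UMIs); spots of 1 section share a library, neighbors and depth, so these are descriptions. Over 3127 spots of KPC-shV, S100a8 and S100a9 correlated at 0.90, S100a9 and Csf3r at 0.70, S100a9 and G0s2 at 0.70, and S100a9 and Retnlg at 0.51. Over 1457 spots of KPC-shZEB1 the same pairs gave 0.74, 0.36, 0.21 and 0.08. Of the 36 pairs of the 9 genes 18 were over 0.3 in KPC-shV and 5 in KPC-shZEB1. How many of all gene pairs pass this limit was not computed. Ly6g was near 0 with every other gene, at most 0.09 in KPC-shV and 0.03 in KPC-shZEB1, and Mmp8 reached at most 0.19 and 0.13. In KPC-shZEB1 92.1% of spots held no Retnlg, 88.2% no Ly6g and 81.7% no Mmp8. In KPC-shV these shares were 81.3%, 86.7% and 76.4%. The part of such low counts in the low correlations and in the difference between the libraries was not tested. With the hypoxia genes the calprotectin genes correlated at 0.69 in KPC-shV and 0.01 in KPC-shZEB1, and with the macrophage markers at -0.48 and 0.08. Csf3r, which macrophages and monocytes can express at a low level, correlated with the macrophage markers at 0.40 in KPC-shZEB1 and -0.09 in KPC-shV.

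**Figure D5:**
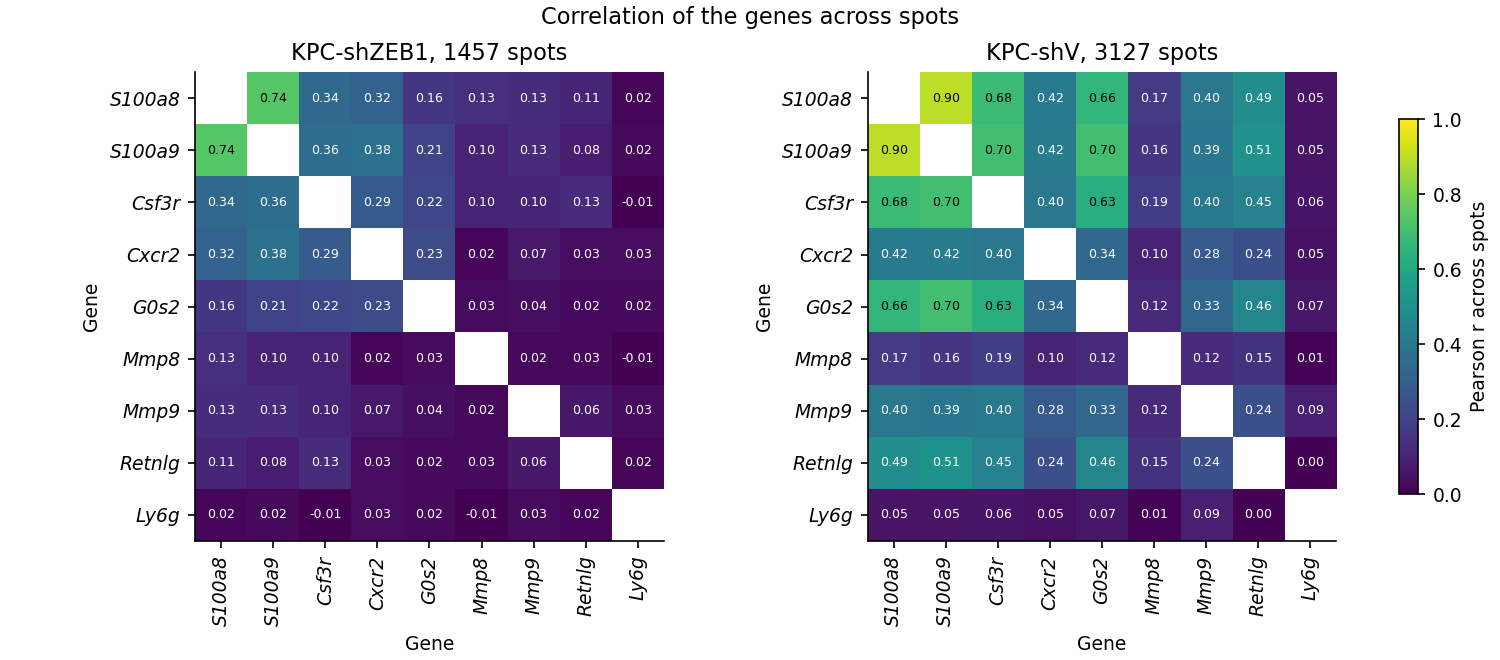
Pearson correlation of each pair of the 9 genes across spots (log2 of 1 + UMIs per 10000 UMIs), in KPC-shZEB1 (left, 1457 spots) and KPC-shV (right, 3127 spots), with the value in each cell. S100a8, S100a9, Csf3r, G0s2 and Retnlg form a block with values of 0.45 to 0.90 in KPC-shV, while Ly6g stayed at or below 0.09 with all others.

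The wider granule program was split by stage. The 6 genes of the earliest, azurophil granule stage were Mpo, Elane, Prtn3, Ctsg, Ms4a3 and Fcnb, not all of which encode granule proteins. They were at 1.01 to 1.90 CPM in KPC-shZEB1, within the range of genes not expected there. In KPC-shV they were at 0.840 to 1.80 CPM. Elane (1.74 CPM), Prtn3 (1.80 CPM) and Mpo (1.35 CPM) lay above the range of that library. None had a log2 ratio beyond 1 in either direction between the libraries. Their median ratio was 0.23. In acinar-rich spots they summed to 1.91 CPM in KPC-shZEB1 and 21.4 CPM in KPC-shV, against 9.04 and 7.84 CPM outside them. From the lowest to the highest hypoxia bin they went from 11.9 to 7.39 CPM in KPC-shZEB1 and from 7.10 to 7.54 CPM in KPC-shV. In spots under 20000 UMIs they were 8.53-fold and 7.56-fold higher than in those of 50000 to under 100000. The 7 background genes were 1.90-fold and 3.03-fold higher there. Of the 6 specific granule proteins, Camp and Chil3 were within the range of their library, at 0.743 to 1.59 CPM, and Ngp was at 2.32 CPM in KPC-shZEB1 and 0.954 CPM in KPC-shV. Cd177, a surface receptor of mature neutrophils, was at 2.68 and 4.31 CPM. Ltf (155 and 279 CPM) and Lcn2 (268 and 400 CPM), encoding lactoferrin and neutrophil gelatinase-associated lipocalin, are also made by duct and tumor epithelium, so that these do not mark neutrophils alone. Between the highest and the lowest hypoxia bin, Ltf, Lcn2 and Cd177, the 3 with at least 100 UMIs there, had log2 ratios of 1.93, 1.27 and 1.44 in KPC-shV. In KPC-shZEB1 Ltf and Lcn2 were at -0.53 and -0.14 and Ngp at -3.06 (-6.12 to -1.17), while Cd177 had too few UMIs. Ngp had only 198 UMIs over all bins of KPC-shZEB1, and the size of its ratio is uncertain.

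Most of the listed genes that neutrophils express once activated in tumors followed the calprotectin pattern in KPC-shV. Of 14 such genes measured (Cxcl2 is not in the feature list used), 11 had a log2 ratio of 1 or higher between the hypoxia bins there, where 3.53% of all genes tested did, with a median of 1.41. Among them were the chemokine genes Ccl3 (2.95) and Ccl4 (2.70), Hcar2, a receptor for niacin and ketone bodies (3.03), Acod1, which makes itaconate (2.39), the lectin receptor gene Clec4e (2.07) and Il1b (1.01). In KPC-shZEB1 2 of 12 tested did, Ptgs2 (1.41) and Ccl3 (1.01), against 3.4% of all genes, with a median of -0.19. Between the libraries 2 of 14 were at -1 or lower in KPC-shZEB1, Ptgs2 (-1.97) and Hcar2 (-1.04), against 1.72% of all genes, with a median of -0.34, and Clec4e (0.59), Acod1 (0.68) and Cd274 (0.53) were higher there. Siglecf, a marker of long-lived tumor neutrophils in other organs, was at 1.53 CPM in KPC-shZEB1, within the range of genes not expected there, and 1.40 CPM (1.23 to 1.59) in KPC-shV, above it. By hypoxia in KPC-shV, Cd274 (0.95), Nlrp3 (0.50) and Siglecf were below a log2 ratio of 1. Siglecf went the other way there, at -0.60 (-1.15 to -0.06). In KPC-shZEB1 Siglecf was at 1.09 (0.07 to 2.02), on too few UMIs to be called. Macrophages and tumor cells express several genes of this list, so the list does not single out neutrophils.

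Ligands of the receptors were lower in KPC-shZEB1. Csf3, the ligand of Csf3r, was at 4.28 CPM in KPC-shZEB1 and 22.8 CPM in KPC-shV, a log2 ratio of -2.41 (-2.57 to -2.26). Of the CXCR2 ligands Cxcl5 was at 167 and 465 CPM, Cxcl1 at 34.3 and 98.1 CPM, Ppbp at 4.19 and 9.75 CPM, and Cxcl3 at 49.1 and 67.1 CPM. Of the 5 ligands measured 4 had a ratio of -1 or lower, all but Cxcl3, against 1.72% of all genes, with a median of -1.48. By hypoxia, the ligands together were at 320, 413, 852 and 976 CPM from the lowest to the highest bin of KPC-shV, and at 206, 275, 311 and 225 CPM in KPC-shZEB1.

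The genes outside the 9 whose level was most like the calprotectin genes across spots, by the lower of the correlations in the 2 libraries among 10787 genes with at least 500 UMIs in each, were Il1f9 (0.37 in KPC-shZEB1 and 0.73 in KPC-shV), Il1b (0.36 and 0.67), Cxcl3 (0.36 and 0.79), Il1r2 (0.35 and 0.61) and Cxcl5 (0.37 and 0.32). Il1f9 and Il1b encode cytokines of the interleukin 1 family, and Il1r2 its decoy receptor. Il1f9 was at 6.32 CPM in KPC-shZEB1 and 18.9 CPM in KPC-shV and had hypoxia ratios of 0.23 and 2.41. Most like the receptor and activation genes were Srgn, the proteoglycan of granules (0.44 and 0.73), Ptafr, Slfn1, Il1b and Cd300lf. Ptafr, the receptor for platelet-activating factor, had hypoxia ratios of -1.90 in KPC-shZEB1 and 0.05 in KPC-shV. For the granule genes, a sum mostly of Mmp9 UMIs, the highest values were lower, with Actb (0.31 and 0.37), Ccl6, Fxyd5, Fgd3 and Cd300lf.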

How the data were processed

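The authors deposited unnormalized counts of UMIs, gene by spot, for 1 probe-based Visium CytAssist section of each tumor type, spots over tissue only, made with Space Ranger 2.0.1 on mm10 (submitters' processing notes). Images and spot positions were not used. Counts of the listed symbols were summed over spots and divided by all UMIs of those spots. With 1 library per condition, 95% intervals were exact Poisson for levels, exact conditional binomial for log2 ratios and exact Clopper-Pearson for shares, and no test was run. PCR and neighboring spots are not independent, so the intervals cover counting error only. A gene with at least 100 UMIs over both sides was called at a log2 ratio of 1 or more in size. The 9 genes and all lists were chosen with earlier results of these data known. Beyond the 9 genes and the lists, the text names the 5 genes most like each group across spots. Listed genes missing from the features were Cxcl2, Ly6c2, Krt18, Hba-a1, Try5, Cpb1, Pnliprp1 and Amy2b. A further listed gene is not reported here. The calculation was also run on simulated counts of 19271 genes for KPC-shZEB1 against KPC-shV. The direction was right for 200 of 200 changed genes, and the median error was 0.0394 (log2). Values set in the simulation lay inside 95.8% of their intervals. Such a run checks the arithmetic only. Because its counts are simulated, it cannot show how far real sections differ, and it is no test of the library differences. Python 3.11.15, numpy 2.4.6, scipy 1.17.1, pandas 2.3.3 and matplotlib 3.10.9 were used. Alternatives covered the spots used, the acinar limit, scaling, spot weighting, the hypoxia genes and bins, and depth.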

Additional observations from a re-analysis of the deposited data

Results flagged for a closer look

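Csf3r had opposite directions along the hypoxia scale in the 2 libraries outside acinar-rich spots. Its log2 ratio of the highest over the lowest hypoxia bin was -0.62 in KPC-shZEB1 and 1.06 in KPC-shV. The receptor and activation genes together (Csf3r, Cxcr2 and G0s2) gave -0.40 and 1.35. Over all spots, acinar-rich ones included, the KPC-shZEB1 values turned to 1.44 for Csf3r and 1.54 for the 3 genes, the direction of KPC-shV. Both intervals of each pair exclude 0, but with 1 library per condition the difference between the libraries was not tested. In KPC-shZEB1 the highest bin held 87 spots and 99 Csf3r UMIs. The Csf3r difference in KPC-shV was small in deep spots, at 29.5 and 33.2 CPM in the lowest and the highest bin of spots of 50000 UMIs or more.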

How the results depend on the processing

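Of 56 values of the gene groups under alternative settings, 26 stayed within the counting interval and 30 moved beyond it. Between the libraries, the calprotectin ratio (-1.56) was -2.20 over all spots, -2.91 as a mean of spots, -1.79 without the top 5% of spots and -1.28 in spots of at least 20000 UMIs. The receptor and activation ratio (-0.44) was -1.02, -1.56 and -0.21 over all spots, as a mean of spots and in deep spots, and -0.34 without G0s2. The granule ratio (0.27) was -0.33 over all spots, -0.36 as a mean of spots, 0.010 without the top 5%, 0.38 in deep spots and -0.80 without Mmp9. By hypoxia in KPC-shV, calprotectin (2.76) was 2.86 over all spots, 3.09 with that library's own quartiles, 2.27 in deep spots and 2.46 without the top 5%. Receptor and activation genes (1.35) were 1.72, 0.90 and 0.99 with own quartiles, in deep spots and without the top 5%. Granule genes (0.75) were 0.86 over all spots, 0.95 with own quartiles, 0.56 in deep spots and 0.60 without the top 5%. By hypoxia in KPC-shZEB1, all spots gave 2.42 for calprotectin (-0.04), 1.54 for receptor and activation genes (-0.40) and 2.54 for granule genes (0.57). The acinar-rich spots that this setting adds had the hypoxia genes at 123 CPM in KPC-shZEB1, against 431 CPM in the lowest bin outside them. Their part in these values was not tested. Granule genes in KPC-shZEB1 were also 0.31 without Vegfa, Adm and Slc2a1 among the hypoxia genes, 0.29 with own quartiles and 0.34 without the top 5%. Mmp9, at 0.73, held 5287 of the 6013 UMIs of that group. Mmp8, Retnlg and Ly6g were at -0.71, -1.25 and -0.85, each with an interval that holds 0, so the group value by hypoxia is mainly that of Mmp9. Of 239 values of single genes, 121 stayed within the counting interval. By hypoxia in KPC-shZEB1, all spots turned the negative ratios of 7 genes: S100a8 (-0.10) to 2.40, Csf3r (-0.62) to 1.44, Cxcr2 (-0.10) to 2.55, G0s2 (-0.02) to 1.16, Mmp8 (-0.71) to 2.18, Ly6g (-0.85) to 1.06 and Retnlg (-1.25, on 48 and 3 UMIs, too few to be called) to 1.50. Mmp9 between the libraries (0.50) turned to -0.10 over all spots and -0.02 as a mean of spots. The cause of the differences between settings was not tested. No paired analysis was possible because each condition has 1 library. Retnlg and Ly6g were limited by depth, with 124 and 239 UMIs in KPC-shZEB1.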
